A study of Mus musculus with 12 samples.

Results

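Cells of the aorta-gonad-mesonephros region (AGM), the part of the mouse embryo in which the first haematopoietic stem cells (HSC) arise from endothelium, were compared by whether they held a transcript of Mki67, the gene of the proliferation antigen Ki-67. The 2 classes were chosen by the raw count of unique molecular identifiers (UMIs) of Mki67. A cell with at least 1 UMI was a cell with Mki67, and a cell with 0 was a cell without. Of the 143 AGM cells kept, 82 were with Mki67 and 61 without, out of 1020 cells kept from 1152 wells of the whole series. Plate 1 gave 54 cells with and 41 without, and plate 2 gave 28 with and 20 without. Mki67 itself was left out of every result.

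All cells are labelled as HSC of AGM from a series on the DARLIN and Cas9/CARLIN mouse lines, which carry edited barcodes for lineage tracing, and the labels do not say which line each plate came from. The labels give no genotype, embryo age, sorting markers or treatment that would separate the classes, and none for the fetal liver cells used for comparison, which are also labelled HSC. Cells were sorted singly into 96-well plates holding a methyltransferase mix, nuclei were taken away on magnetic beads, and the cytoplasmic polyadenylated RNA was read by a modified form of scSTRT-seq. Both AGM plates carry 1 origin code and the 5 fetal liver plates carry 2, so p-values between the AGM classes measure only the spread between 2 plates of 1 origin and not the spread between animals. Cells with 5 or more UMIs of Xist and fewer of Y chromosome genes, and cells of the opposite kind, were both found, so the AGM plates held cells of at least 2 embryos. There were 7 Xist and 43 Y cells among cells with Mki67, against 2 Xist and 32 Y cells among cells without.

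Ki-67 is a chromosome surface protein whose transcript and protein build up through S phase, peak in G2 and mitosis and are lost in resting cells. Cycling cells pass in turn through G1, when cyclin D genes are used, S phase, when DNA is copied by replication factors and nucleotide enzymes, and G2 and M, when cyclin B, kinetochore and spindle genes are used. In the AGM, blood cell clusters that bud from arterial endothelium hold both endothelial and early blood transcripts.

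The kept AGM cells held 24323995 UMIs. Plate 1 lost 1 of 96 wells, which had 2657 UMIs and 1066 genes, beside a lowest kept cell of 22875 UMIs and 2886 genes. Plate 2 lost 48 of 96 wells, with at most 181 UMIs and 142 genes, beside a lowest kept cell of 3738 UMIs and 1320 genes. None of the 49 wells left out held an Mki67 UMI. Endothelial and blood genes of the lists used here were found in every class: 0 of 25 endothelial and 0 of 28 blood emergence genes were at 0 in any plate and class. Ptprc (CD45, a pan-blood surface phosphatase) had a UMI after thinning to 20000 UMIs in 19 of 82 cells with Mki67 and 13 of 59 cells without. The same 96 well barcodes were used in all 12 plates.

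The Mki67 count ran from 0 to 143 UMIs with many cells at the low end. Of the 82 cells with Mki67, 24 held exactly 1 UMI, 13 held 2, 3 held 3 or 4, and 42 held 5 or more. Among these 42 the median was 20 UMIs and the highest count 143 UMIs. The ranges differ in width, so these counts do not show separate groups. The 40 cells with 1 to 4 UMIs held 4.55% of all Mki67 UMIs of the AGM cells. The cells just inside the threshold were thus 24 cells at 1 UMI and those just outside it 61 cells at 0. Low counts were common for all genes: 33.8% of all nonzero gene counts in AGM cells were 1 or 2, while the median nonzero count was 9. The share of cells with at least 1 UMI was 57.3% (exact 95% binomial interval 48.8% to 65.6%), and the share with at least 5 was 29.4% (22.1% to 37.6%). Intervals cover counting error only. After thinning every cell to 20000 UMIs, Mki67 was found in 30 of 95 cells of plate 1 (31.6%) and 14 of 46 of plate 2 (30.4%), against 15.1% to 34.7% in the 5 fetal liver plates and 3.26% to 12.1% in the 5 bone marrow plates. The threshold of 5 was chosen after these counts were seen, and the levels of 0, 1 to 4 and 5 or more UMIs are used below as a description beside the classes.

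**Figure D1:**
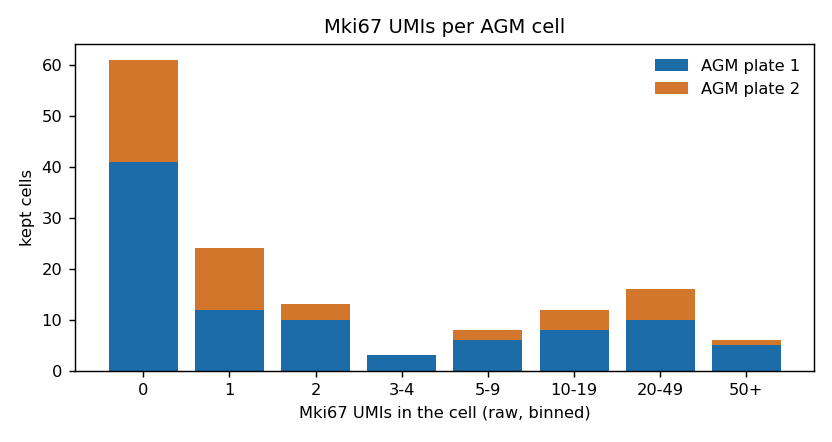
Number of kept AGM cells (vertical axis) by raw Mki67 UMIs in the cell (horizontal axis, binned), stacked by plate. There are 37 cells with 1 or 2 UMIs, 3 cells with 3 or 4 and 42 cells with 5 or more. The bins differ in width.

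Cells with Mki67 were deeper. Before pairing, the median cell had 169500 UMIs with Mki67 against 140900 without in plate 1, and 187300 against 115300 in plate 2. Cells were therefore paired 1 to 1 on total UMIs within each plate, which kept 40 pairs in plate 1 and 17 in plate 2, and their counts were summed per plate and class. The paired medians were 145173 UMIs with Mki67 against 145346.5 without in plate 1, and 153964 against 136654 in plate 2.

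Between the paired classes, 3 genes passed the test and all 3 rose in cells with Mki67. They were Nusap1, which bundles spindle microtubules, Top2a, the topoisomerase that untangles sister chromosomes, and Ube2c, the ubiquitin carrier of the anaphase promoting complex. These made up 0.0279% of the 10762 genes tested, and 0.0% of genes passed in the lower direction. The test was edgeR's quasi-likelihood test with plate as a block and Benjamini-Hochberg adjustment over all tested genes at 0.05. At an unadjusted p under 0.05 there were 264 higher and 304 lower genes, and DESeq2 called 61 higher and 40 lower.

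Nusap1 had 296 and 258 CPM (the gene's UMIs scaled to the total of the class) in cells with Mki67 of plates 1 and 2, against 72.1 and 73.5 CPM in cells without. Both sums with Mki67 lay above both sums without. The log2 fold change was 1.93 ± 0.29 (standard error, n = 2 plates per class) with an adjusted p of 2.74e-05 in edgeR.

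Top2a had 391 and 352 CPM in cells with Mki67, against 125 and 140 CPM in cells without, again with no overlap. Its log2 fold change was 1.49 ± 0.23 (adjusted p = 5.49e-05, edgeR). Ube2c had 519 and 405 CPM in cells with Mki67, against 221 and 258 CPM in cells without, and rose by 0.94 ± 0.20 on the log2 scale (adjusted p = 0.0251, edgeR). The 3 calls were lost when the plate block was left out (adjusted p 0.146, 0.146 and 0.999 in edgeR for Nusap1, Top2a and Ube2c) and when the spread was shared with the fetal liver plates (0.163, 0.163 and 0.784). With the spread shared in this way and 1 AGM plate left out, Nusap1 stayed below 0.05, Top2a had 0.116 without plate 1 and 0.0659 without plate 2, and Ube2c had 0.576 and 0.186. The call of Ube2c was also lost in limma-voom (0.0561) and without cells carrying smooth muscle or erythroid markers (0.424).

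**Figure D2:**
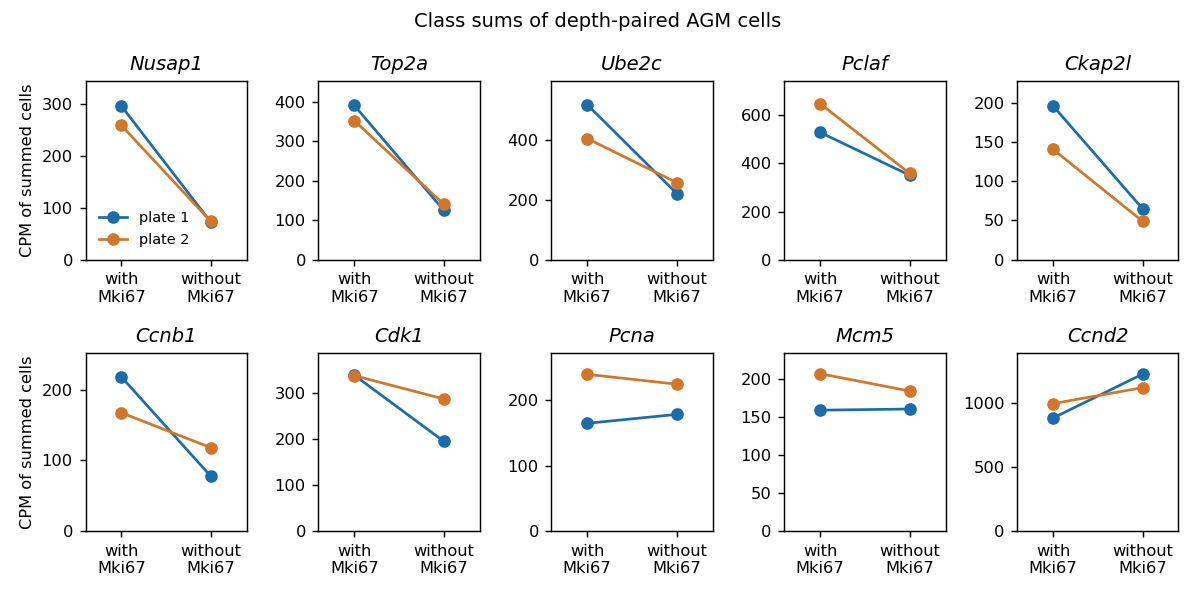
CPM of the summed depth-paired AGM cells (vertical axes, from 0) with Mki67 and without Mki67, 1 line per plate. Nusap1, Top2a and Ube2c are higher with Mki67 in both plates, while Pcna and Mcm5 lie close together and Ccnd2 is lower with Mki67.

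The start regions of these 3 genes are shown because many G2 and M genes are known to share 2 short elements near their start, the cell cycle genes homology region (searched as TTTGAA and TTCGAA) and the CCAAT box (CCAAT), which bind the MuvB complexes with B-Myb or FoxM1 and the factor NF-Y. Each line gives 300 bases around the RefSeq start on the strand of the gene (GRCm38.p6), with matches of either element on either strand in capitals. Nusap1 is at chr2:119618048-119618347 on the plus strand, Ube2c at chr2:164769679-164769978 on the plus strand and Top2a at chr11:99024140-99024439 on the minus strand.
Nusap1: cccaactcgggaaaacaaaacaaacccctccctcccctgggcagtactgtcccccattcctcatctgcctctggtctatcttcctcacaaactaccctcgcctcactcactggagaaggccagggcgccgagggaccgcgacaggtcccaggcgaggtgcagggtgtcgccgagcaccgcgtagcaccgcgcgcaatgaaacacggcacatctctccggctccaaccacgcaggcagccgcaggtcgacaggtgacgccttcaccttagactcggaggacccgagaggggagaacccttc
Ube2c: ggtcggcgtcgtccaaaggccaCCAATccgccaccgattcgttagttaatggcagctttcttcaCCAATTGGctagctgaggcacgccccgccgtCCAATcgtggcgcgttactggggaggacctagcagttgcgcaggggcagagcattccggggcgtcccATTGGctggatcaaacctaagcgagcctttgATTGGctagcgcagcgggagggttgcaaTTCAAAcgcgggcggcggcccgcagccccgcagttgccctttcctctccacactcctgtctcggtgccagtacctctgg
Top2a: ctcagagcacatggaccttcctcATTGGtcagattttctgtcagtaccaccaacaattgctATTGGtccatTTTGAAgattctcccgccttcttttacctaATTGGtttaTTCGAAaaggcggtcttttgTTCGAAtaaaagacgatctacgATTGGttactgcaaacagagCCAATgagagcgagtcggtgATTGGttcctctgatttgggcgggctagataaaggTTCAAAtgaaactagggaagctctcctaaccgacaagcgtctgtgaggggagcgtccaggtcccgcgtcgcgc
The Top2a window held 4 matches of the homology region and 6 of the CCAAT box, the Ube2c window held 1 and 6, and the Nusap1 window held 0 of either. A CCAAT match and its reverse that overlap were counted apart. Of the 48 genes of the G2 and M phase list with a window, 75.0% held the homology region letters and 62.5% held both elements. For the 34 genes of the S phase list these shares were 20.6% and 14.7%, and for all 27025 genes with a window 21.7% and 9.65%. The CCAAT letters, with or without the homology region, were nearly as common in both lists. They were in 77.1% of the G2 and M genes, 70.6% of the S phase genes and 41.1% of all genes. A match of such short letters is a description and not a binding site.

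The next 2 genes by p in the higher direction did not pass. Pclaf, a PCNA-binding factor of replicating cells, had 529 and 648 CPM with Mki67 against 351 and 358.5 CPM without (log2 fold change 0.72 ± 0.16, adjusted p = 0.0704, edgeR). Ckap2l, a spindle protein, had 196 and 140 CPM with Mki67 against 64.8 and 48.9 CPM without (1.56 ± 0.37, adjusted p = 0.133).

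Genes of G2 and M lay higher as a list. Of the 56 listed genes, all tested, 3 rose and 0 fell in edgeR, with a median log2 fold change of 0.74 beside 0.02 over all tested genes. In both plates 47 of the 56 were higher with Mki67, beside 25.9% of all tested genes, and 2 were lower in both. The count of listed genes that rose was 10 in DESeq2, 9 with every cell thinned to 20000 UMIs and 14 without pairing on depth. The mitotic lists share genes, so their counts are not separate. The list of spindle, motor and cytokinesis genes had 1 of 25 tested genes that rose in edgeR and 4 in DESeq2, a median of 1.20 and 19 higher in both plates. The kinetochore and centromere list had 0 of 26 that rose in edgeR, 9 higher at an unadjusted p under 0.05, and 3 that rose in DESeq2. Its median was 0.75, with 23 of 26 higher in both plates. The spindle checkpoint and anaphase promoting complex list had 1 of 24 that rose in edgeR and 4 in DESeq2, a median of 0.70 and 16 of 24 higher in both plates. The condensin and chromosome structure list had 1 of 21 that rose in edgeR and 2 in DESeq2, a median of 0.31 and only 10 of 21 higher in both plates. Counts for the lists below are also edgeR's, and DESeq2 is named where it called a gene of a list.

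Several single G2 and M genes that did not pass are given with their values. Ccnb1, the cyclin that starts mitosis, had 218 and 167 CPM with Mki67 against 77.7 and 118 CPM without (log2 fold change 1.0 ± 0.32). Ccna2, the cyclin of S phase and G2, had 147 and 113 CPM against 65.0 and 29.0 CPM (1.56 ± 0.43). Aurka, the centrosome kinase, had 106 and 113 CPM against 34.0 and 39.0 CPM (1.59 ± 0.47). Sums with Mki67 lay above sums without in all 3 genes. The mitotic kinase Plk1 differed by 1.70 ± 0.56, the checkpoint kinase Bub1 by 1.96 ± 0.65, and the kinesin Kif11 by 2.90 ± 0.83 on the log2 scale, with adjusted p from 0.342 to 0.591 in edgeR. Cenpf, a kinetochore protein, had 491 and 271 CPM with Mki67 against 168 and 234 CPM without, so that the lower plate with Mki67 lay only a little above the higher plate without. Cdk1, the kinase partner of cyclin B, had 339 and 338 CPM against 195 and 287 CPM (0.52 ± 0.21, adjusted p = 0.842). Among kinetochore genes, Spc24 had 344.5 and 331 CPM with Mki67 against 193 and 213 CPM without (0.74 ± 0.22), and the cohesin protector Sgo1 160 and 128.5 against 61.1 and 66.8 CPM (1.17 ± 0.38). The spindle genes Hmmr and Aspm differed by 1.31 ± 0.38 and 2.89 ± 1.0. Hmgb2, an abundant chromatin protein, had 1377 and 1346 CPM with Mki67 against 1039 and 1252 CPM without (0.26 ± 0.10). The condensin core genes Smc2 and Smc4 differed by 0.63 ± 0.19 and 0.60 ± 0.22.

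S phase genes gave smaller values and no call. Of 46 listed genes 0 passed in either direction, with 3 higher and 0 lower at an unadjusted p under 0.05 in edgeR, and their median log2 fold change was 0.21. In both plates 17 of the 46 were higher with Mki67 and 4 were lower, beside 25.9% and 25.6% of all tested genes. Pcna, the sliding clamp of replication, had 165 and 239 CPM with Mki67 against 178 and 224 CPM without, and its classes overlapped (log2 fold change -0.01 ± 0.25). Mcm5, a part of the replicative helicase, had 159 and 207 CPM against 160 and 184 CPM (0.08 ± 0.27). The licensing and fork list (median 0.19) had 0 of 42 and the nucleotide supply list (median 0.04) 0 of 20 that passed. The ribonucleotide reductase gene Rrm2 was at 124 and 170 CPM with Mki67 against 101 and 43.7 CPM without (1.10 ± 0.39, adjusted p = 0.638, edgeR). The other reductase subunit Rrm1 differed by 0.61 ± 0.32, and the thymidine enzymes Tyms and Tk1 by 0.42 ± 0.21 and 0.58 ± 0.25. Gmnn, the inhibitor of relicensing, had 125 and 273 CPM with Mki67 against 127 and 93.4 CPM without, so that plate 1 showed no gap (0.75 ± 0.32). Among licensing genes, Mcm7 differed by 0.57 ± 0.31 and Orc4 by 1.89 ± 0.70. Dnmt1, which copies DNA methylation at replication, had 143 and 167 CPM against 104 and 172 CPM (0.21 ± 0.31).

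The levels of Mki67 separated these genes further. In the table of single cells, the count of G2 and M list genes at 5 or more UMIs was 1 to 50 with a median of 18 in the 61 cells at 0 Mki67 UMIs, 10 to 49 with a median of 22 in the 40 cells at 1 to 4, and 15 to 53 with a median of 43 in the 42 cells at 5 or more. At least 20 such genes were found in 37.7% of cells at 0 (25.6% to 51.0%), 57.5% at 1 to 4 (40.9% to 73.0%) and 95.2% at 5 or more (83.8% to 99.4%). The highest cell without Mki67 held 50 of these genes and the highest cell with it 53, and 23 of the 61 cells without held 20 or more. At 20000 UMIs per cell the medians of list genes with a UMI were 20, 27.5 and 40. For S phase genes at 5 or more UMIs the medians were 17, 19.5 and 28, and at equal depth they were 18, 21.5 and 26. The cut at 20 genes was chosen after the values were seen.

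**Figure D3:**
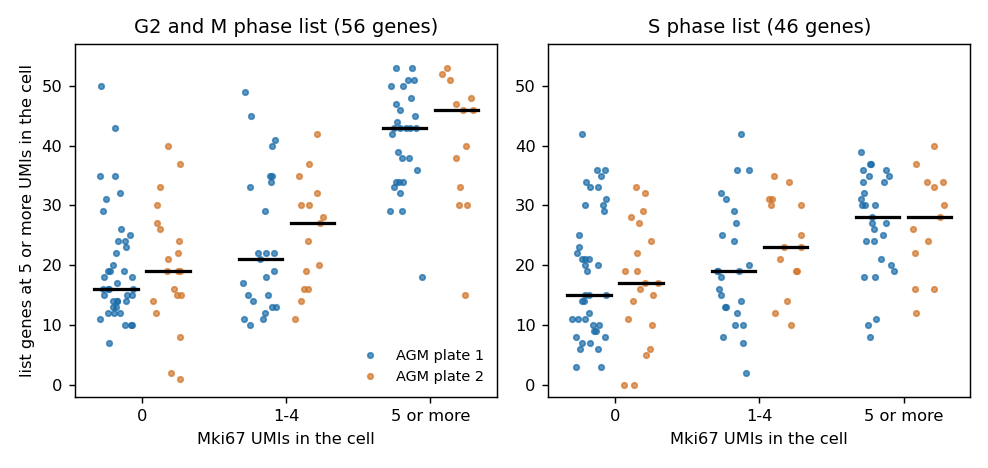
Number of list genes at 5 or more UMIs in each AGM cell (vertical axis) by Mki67 UMIs in the cell (horizontal axis), 1 point per cell and a black bar at each plate's median. For G2 and M genes the medians of both plates are 16 and 19 at 0, 21 and 27 at 1 to 4, and 43 and 46 at 5 or more Mki67 UMIs. For S phase genes the levels overlap over most of their range.

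Top2a per cell ran from 0 to 882 with a median of 28.8 CPM at 0 Mki67 UMIs, from 0 to 990 with a median of 67.0 at 1 to 4, and from 47.6 to 1027 with a median of 513 at 5 or more. Nusap1 had medians of 13.9, 16.2 and 351 CPM, and Ube2c of 121, 157 and 691 CPM. Between the 2 lower levels the plates did not all rise. The median of Ube2c went from 119.6 to 109.0 CPM in plate 1 and from 146.9 to 190.2 in plate 2. That of Nusap1 went from 12.35 to 16.36 and from 16.49 to 16.07 CPM. The median of the high level stood far above both lower levels in all 3 genes, but the ranges overlapped. Ube2c reached 1209 CPM at 0 and was as low as 55.95 at 5 or more. Nusap1 was at 5 or more UMIs in 13 of 61 cells at 0 (21.3%, 11.9% to 33.7%), 14 of 40 at 1 to 4 (35.0%, 20.6% to 51.7%) and 37 of 42 at 5 or more (88.1%, 74.4% to 96.0%).

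The same test was run between the levels in cells paired anew on depth. Only edgeR was run for these comparisons. Against cells at 0 its spread was borrowed wholly across genes, unlike between the classes, so the counts of calls are not on the same footing. Cells at 5 or more Mki67 UMIs against cells at 0 gave 34 higher genes (0.334% of 10168) and 42 lower ones (0.413%). Of the 34 higher genes 24 were in the mitotic lists, and 20 of the 56 G2 and M genes rose, with a list median of 1.33. S phase genes again gave 0 of 46, at a median of 0.18. Outside that list, Pclaf rose by 0.97 ± 0.17 (adjusted p = 1.09e-05, edgeR). The replication-dependent histone gene Hist1h2ae, also outside it, rose by 0.63 ± 0.15 (0.00852). Among the genes that rose were Bub1 (log2 fold change 3.65 ± 0.70), Aurka (2.15), Ccna2 (2.17), Ccnb1 (1.51), Cenpf (1.36), Smc4 (1.13), Cdk1 (0.81) and Birc5 (0.78), the survivin gene of the chromosomal passenger complex. Cells at 1 to 4 UMIs against cells at 0 gave 0 higher genes (0.0% of 10104, 206 at an unadjusted p under 0.05 in edgeR, no other tool run) and 1 lower gene (0.0099%), Rdx, which links actin to the membrane. The G2 and M median there was 0.22. With the class drawn at 2 UMIs, 55 genes rose (0.519% of 10596) and 135 fell (1.27%), of which 32 and 39 were also called at 5. Of the 55, 34 were in the mitotic lists. The others, picked after their values were seen, included genes known from other blood cells: the mast cell and basophil genes Hdc (log2 fold change 3.62 ± 0.997) and Cpa3 (1.99 ± 0.54), the Fc receptor gene Fcgr3 (1.995 ± 0.57), the activation antigen Cd69 (3.96 ± 0.93), the chemokine Ccl3 (2.25 ± 0.55) and the lysosomal gene Ifi30 (4.31 ± 1.29), beside the globin genes Hbb-bt (2.07) and Hbb-y (3.07). The part of these genes in the other calls was not tested at this threshold. The limits set for named genes on level and on the share of 1 cell were not applied to them. Of these genes only Hbb-bt and Hbb-y were also called at 5 or more UMIs against 0. The genes that rose at 2 UMIs outside the mitotic lists also held Pclaf (0.86), Nucks1 (0.93), Hist1h1e (1.10) and Lmnb1 (1.39). Of the listed markers of other cells, 2 of 8 tested erythroid and 1 of 8 macrophage and granulocyte genes rose there. The cells at 0 were shared by these comparisons. Depth was not fully matched by pairing. The paired medians were 171599 UMIs at 5 or more against 168848 at 0 in plate 1, and 236887 against 175827 in plate 2. At 2 or more they were 167655 against 155534 in plate 1, and 180789 against 160439 in plate 2. The part of these gaps in the results was not tested.

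Cells at 5 or more UMIs set directly against cells at 1 to 4 gave 4 higher and 4 lower genes (0.039% of 10248 each way). Nusap1 (1.37 ± 0.25, adjusted p = 0.0283), Top2a (1.21 ± 0.22, 0.0283), Ube2c (0.92 ± 0.18, 0.0393) and the kinetochore scaffold Knl1 (2.96 ± 0.51, 0.0196) rose. Id3, an inhibitor of helix-loop-helix factors (-2.47 ± 0.40, 0.0146), Gja4, an arterial gap junction protein (-2.07 ± 0.40, 0.0392), Cldn5, an endothelial tight junction protein (-1.32 ± 0.25, 0.0375), and S100a16 (-1.27 ± 0.25, 0.0393) fell. Id3, Gja4, Cldn5, S100a16, Knl1 and Birc5 were picked after their values were seen. The paired medians there were 169627 UMIs at 5 or more against 151004.5 at 1 to 4 in plate 1, and 236887 against 187202 in plate 2, and the part of this gap in the result was not tested.

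**Figure D4:**
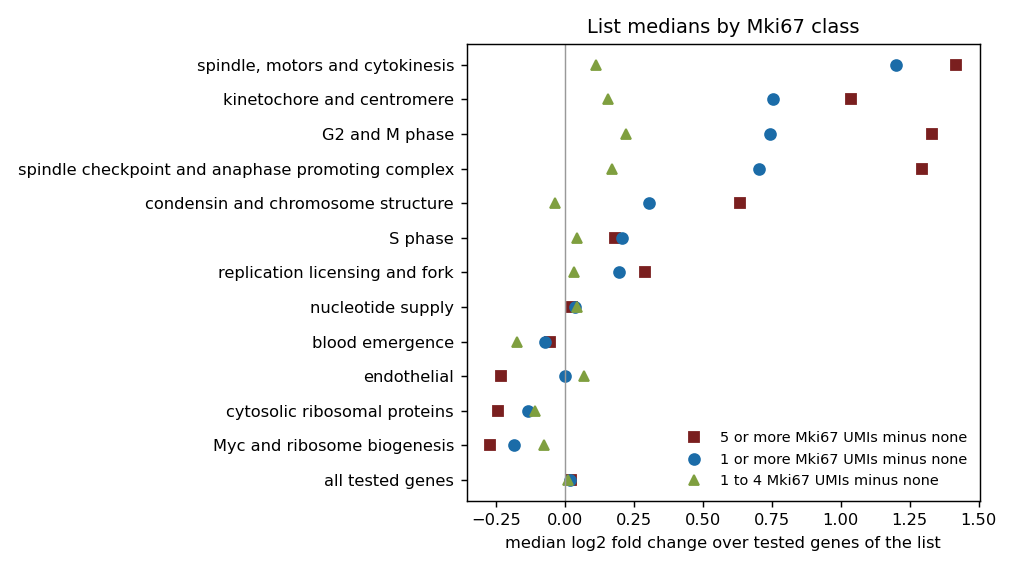
Median log2 fold change over the tested genes of each list (horizontal axis) for cells with 5 or more, 1 or more, and 1 to 4 Mki67 UMIs, each minus cells with none. The G2 and M phase list is at 1.33, 0.74 and 0.22 and the S phase list at 0.18, 0.21 and 0.04, beside all tested genes at 0.02, 0.02 and 0.01.

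Genes of the G1 and resting state did not pass between the classes. Ccnd2, a cyclin D gene, had 886 and 998 CPM with Mki67 against 1229 and 1123 CPM without, with no overlap (log2 fold change -0.32 ± 0.11, adjusted p = 0.591, edgeR). At the Mki67 levels its median per cell was 1307 CPM at 0, 1012 at 1 to 4 and 665 at 5 or more, and it fell by 0.54 on the log2 scale at 5 or more against 0 (adjusted p = 0.00478). Ccnd1 had 26.3 and 47.5 CPM with Mki67 against 107 and 51.3 CPM without (-1.08 ± 0.57), and Ccne1, the cyclin of the G1 to S step, differed by 0.01 ± 0.67. Of the cyclin and kinase list 0 of 20 passed in edgeR and 1 rose in DESeq2. Of 18 tested genes for inhibitors and quiescence 0 passed. Cdkn1c (p57, an inhibitor tied to stem cell quiescence) had 561 and 468 CPM with Mki67 against 667 and 440 CPM without, so its plates pointed in different ways (-0.08 ± 0.15). Foxm1, the factor of mitotic genes, was too low to read, at 3.81 and 5.24 CPM with Mki67 against 0.697 and 15.5 CPM without.

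In the lower direction no gene passed between the classes, and the 5 with the smallest p are given as not passing. Bst2 and Isg15 are interferon-induced genes. Bst2 had 449 and 270 CPM with Mki67 against 546 and 584 CPM without (log2 fold change -0.69 ± 0.17, adjusted p = 0.164, edgeR), and Isg15 34.9 and 16.8 against 91.6 and 115 CPM (-2.06 ± 0.53, 0.222). Arl4a, a small GTPase, differed by -3.14 ± 0.78, Wdr60, a dynein part, by -1.97 ± 0.50, and Rdx by -0.51 ± 0.14. Isg15 did not follow the Mki67 level: its summed level was 96.5 CPM at 0, 21.0 at 1 to 4 and 71.2 at 5 or more.

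Ribosomal protein genes lay slightly lower. In the list of 24, 0 passed and 22 were lower in both plates, beside 25.6% of all tested genes, with a median log2 fold change of -0.13. Rplp0 had 2587 and 2517 CPM with Mki67 against 2774 and 2939 CPM without (-0.16 ± 0.07, adjusted p = 0.898, edgeR). Over all 82 ribosomal protein genes tested, 0 fell at 1 UMI, 67 at 2 UMIs and 21 at 5 UMIs against 0, at medians of -0.13, -0.22 and -0.25, beside 0.0%, 1.27% and 0.413% of all tested genes. The fits at 2 and 5 UMIs used a spread borrowed wholly across genes, and the fit at 1 UMI did not. At 1 UMI the count depended on how depth was handled: 68 of the 82 fell with every cell thinned to 20000 UMIs (median -0.33) and 80 fell without pairing (median -0.40), against 0 in DESeq2 with pairing. These genes move together, so their calls are not separate. The share of a cell's UMIs in these genes ran from 9.14% to 32.5% with a median of 15.9% in cells with Mki67, and from 12% to 41.1% with a median of 18.5% in cells without. Total UMIs and genes move with this result: at 20000 UMIs the median cell with Mki67 had 3570 genes and the median cell without 3214. The part of either was not tested. Gnl3, a nucleolar gene of the Myc and ribosome biogenesis list (median -0.19), had 274 and 249 CPM with Mki67 against 399 and 403 CPM without (-0.62 ± 0.20), and fell by 0.79 at 5 or more against 0 (adjusted p = 0.0332). Myc itself was low, at 23.0 and 30.7 against 28.6 and 63.2 CPM. Among glycolysis genes, 0 of 14 passed in edgeR and 1 fell in DESeq2 (median -0.16), with Ldha at 676 and 644 CPM against 787 and 929 CPM.

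Endothelial genes had a median of 0.00 between the classes, and 0 of 25 passed. Cdh5, the endothelial cadherin, had 156 and 97.1 CPM with Mki67 against 180 and 89.0 CPM without (log2 fold change -0.05 ± 0.33). At 5 or more Mki67 UMIs against 0, the median was -0.23 and 1 of 25 fell, Cldn5 (-1.07, adjusted p = 0.0203). In plate 1 the median of Cdh5 per cell was 152 CPM at 0, 90.5 at 1 to 4 and 38.9 at 5 or more. In plate 2 it was 44.0, 24.1 and 16.6 CPM, with wide overlap in both plates. Ramp2, an endothelial receptor partner, had 579 and 436.5 CPM with Mki67 against 734 and 483 CPM without (-0.25 ± 0.15), and Ecscr, an endothelial surface protein, 631 and 470 against 592 and 312 CPM (0.34 ± 0.16). Of 16 arterial and Notch genes 0 passed between the classes (median 0.11). Hes1, a Notch target, had 373 and 179 CPM with Mki67 against 511 and 268 CPM without (-0.52 ± 0.20), a larger gap between plates than between classes.

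Blood genes gave no call between the classes. Of 28 blood emergence genes 0 passed, with a median of -0.07. Runx1, the factor that drives the step from endothelium to blood, had 152 and 92.2 CPM with Mki67 against 182 and 207 CPM without (log2 fold change -0.70 ± 0.30, adjusted p = 0.874, edgeR). Kit, the stem cell factor receptor, had 150 and 125 CPM against 103 and 152 CPM (0.14 ± 0.33), and Procr, a stem cell surface receptor, 440 and 473 against 440 and 310 CPM (0.30 ± 0.18). Hlf, a stem cell factor, had 76.7 and 78.2 CPM against 75.6 and 35.4 CPM (0.57 ± 0.50). Of the stem cell list 0 of 20 passed (median 0.08). Igf2, a fetal growth factor, had 1504 and 1390 CPM against 1551 and 1427 CPM (-0.04 ± 0.09), and 0 of 14 imprinted growth genes passed.

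Markers of other cells were measured beside these results. Of the 18 smooth muscle and mesenchyme markers 15 were in the tables and 3 were tested. Their summed level was 195 and 165 CPM in cells with Mki67 against 263 and 130 CPM in cells without, with Acta2 at 101 and 12.6 against 75.6 and 83.5 CPM. The 15 erythroid markers summed to 353 and 230 CPM with Mki67 against 107 and 161 CPM without, with 6 and 6 of the 15 at 0 with Mki67 against 4 and 6 without. Macrophage and granulocyte markers summed to 1301 and 1176 CPM against 749 and 1313 CPM, megakaryocyte markers to 357 and 404 against 370 and 410 CPM, and epithelium and germ cell markers to 160 and 176 against 204 and 241 CPM. None of these lists had a gene that passed between the classes in edgeR or DESeq2, and with every cell thinned 1 erythroid and 1 macrophage and granulocyte gene rose. The globin genes Hbb-bt and Hbb-y rose at 5 or more Mki67 UMIs against 0, by 2.41 (adjusted p = 0.00293) and 3.23 (0.00275) on the log2 scale. For Hbb-y 1 cell held 67.9% of the UMIs of the 42 cells at 5 or more, and its median per cell was 35.5 CPM at 0, 37.0 at 1 to 4 and 32.3 at 5 or more. Hbb-bt was at 5 or more UMIs in 10 of 61, 13 of 40 and 26 of 42 cells, counts not matched on depth. Its median per cell at 0, 1 to 4 and 5 or more was 10.75, 10.56 and 22.51 CPM in plate 1. In plate 2 it was 25.08, 18.4 and 25.01 CPM, with no rise. Without cells that carried at least 3 smooth muscle or at least 3 erythroid markers at 5 or more UMIs, Nusap1 and Top2a still rose (log2 fold changes 1.46 and 1.33).

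The same classes were set side by side in fetal liver. The median log2 fold change of the G2 and M list was 0.75 in AGM and 1.41 in fetal liver in a fit over the 7 plates, beside 0.02 in both for all tested genes. After adjustment 0 of 56 genes differed between the tissues (0.0405% of 12337 tested genes did). At an unadjusted p under 0.05 in edgeR, 7 of the 56 did, beside 532 of the 12337. The median difference of the list was -0.57, beside -0.01 for all tested genes. Top2a differed by 1.5 in AGM and 2.15 in fetal liver on the log2 scale (difference -0.65 ± 0.43, adjusted p = 1.0, edgeR), Nusap1 by 1.94 and 2.40 (-0.47 ± 0.55), and Ube2c by 0.95 and 1.70 (-0.75 ± 0.43). In cells without Mki67, Top2a was at 116 and 127 CPM in AGM and at 34.5 to 85.3 CPM in fetal liver. In cells with Mki67 it was at 368 and 320 CPM in AGM and at 147 to 354 CPM in fetal liver. Paired cells had median UMIs of 35499 to 108003 per fetal liver plate and class, below both AGM plates, so that 1 Mki67 UMI is not the same threshold in both tissues.

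**Figure D5:**
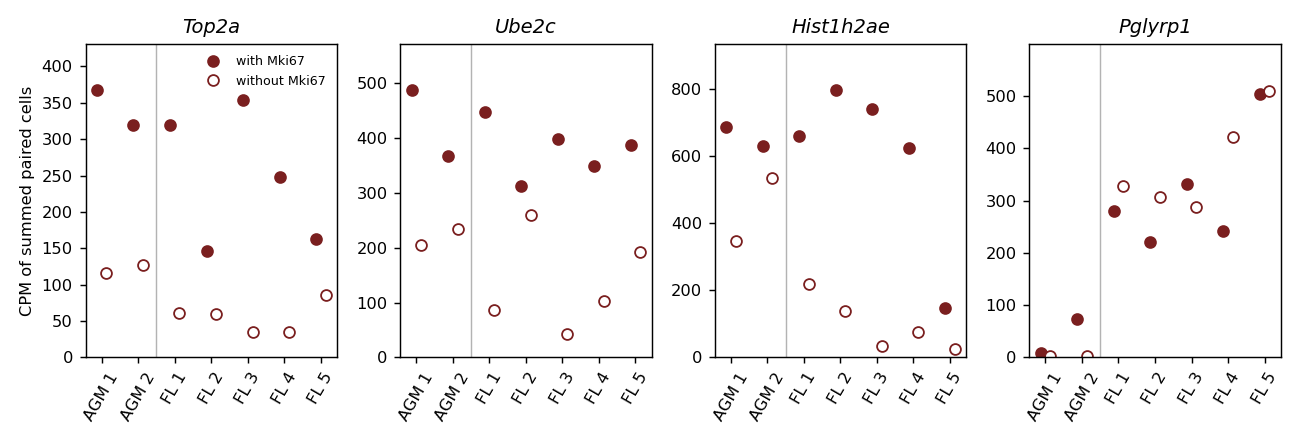
CPM of summed depth-paired cells (vertical axes, from 0) in each AGM and fetal liver (FL) plate, with Mki67 (filled) and without Mki67 (open). Top2a and Ube2c are higher with Mki67 in all 7 plates. For Hist1h2ae the gap is wide in fetal liver plates 1 to 4 and narrower in AGM, and Pglyrp1 is far lower in AGM in either class.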

How the data were processed

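The authors deposited 1 table of raw UMI counts per gene symbol and well for each plate, with no normalization. The build was mm10 and the tools were SAMtools, featureCounts and UMI-tools, per the submitters' processing notes. No source used here gives versions, the annotation or the use of strand, and overlapping and antisense genes may share reads. A well was kept with at least 1000 genes, 3000 UMIs and under 20% mitochondrial UMIs. Cells with and without Mki67 were paired 1 to 1 within a plate on total UMIs less Mki67 (within 0.5 on the log2 scale), and raw counts were summed per plate and class, which gave 4 AGM sums. edgeR 4.0.16 (R 4.3.3) fitted these with TMM normalization, filterByExpr and plate as a block. This left 1 residual degree of freedom beside a prior of 78.7 borrowed across genes, which sets most of the spread used. DESeq2 1.42.0 and limma 3.58.1 were alternatives, with others on pairing, thinning, class, filters, plates and scaling. Standard errors are the log2 fold change over the square root of F. CPM are relative to TMM-scaled sizes in class sums and to total UMIs in single cells and levels. The classes of a plate share that plate, which is why plate is a block. The difference between tissues added 5 fetal liver plates. The steps were tested on simulated data over the 10762 genes.

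Members and lists were chosen with earlier results of these data known. Named genes are the 5 smallest p of each direction where fewer than 5 were called, with at least 50 CPM in the higher class, the same direction in both plates, no cell with over 50% of the UMIs and no Xist, Y chromosome or predicted gene, plus up to 4 genes per list and a fixed set of marker genes. No doublet caller was run, since cells were sorted singly. Cells were not clustered or typed. Promoter sequences come from RefSeq on GRCm38.p6. The tables held no column of a sample outside the 12 plates.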

Additional observations from a re-analysis of the deposited data

Results flagged for a closer look

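In 5 genes the difference between cells with and without Mki67 itself differed between AGM and fetal liver by the edgeR test of the difference over 7 plates. Each value is the AGM difference minus the fetal liver difference on the log2 scale, with its standard error. Hist1h2ae, a replication-dependent histone gene, had -2.17 ± 0.38 (adjusted p = 0.0218), with 686 and 629 CPM with Mki67 against 346.5 and 533 CPM without in AGM, and 148 to 795 CPM with against 25.2 to 219 CPM without in fetal liver. It is one of many near-identical histone genes that may share reads, and its value is uncertain. The call remained in 12 of 15 other settings, with adjusted p from 5.52e-17 to 0.9998. Pglyrp1, a peptidoglycan-binding protein of granules, had 3.17 ± 0.48 (adjusted p = 0.00391), with 8.11 and 74.5 CPM with Mki67 against 3.23 and 2.88 CPM without in AGM, and 221.5 to 505 CPM with against 287.5 to 510 CPM without in fetal liver. One AGM cell held 43.6% of its UMIs in cells with Mki67, and the call remained in 13 of 15 settings (adjusted p up to 0.202).

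Tep1, a telomerase-associated protein, had 5.24 ± 0.97 (adjusted p = 0.0232), from 131 UMIs in AGM cells with Mki67 and 5 in those without. Gdpd3 had 4.62 ± 0.86 (0.0232), from 133 and 11 UMIs, and Gm5111, a predicted gene, had -4.21 ± 0.76 (0.0232), from 3 and 54 UMIs. For these 3 genes 1 cell held from 27.8% to 90.9% of a class's UMIs, and the calls remained in 9, 7 and 8 of 15 settings.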

How the results depend on the processing

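The counts of called genes depended on how Mki67 classes were drawn and on how depth was handled. Against 3 higher and 0 lower genes, all kept cells without pairing gave 21 and 185, thinning to 20000 UMIs gave 18 and 99, a class at 2 UMIs gave 55 and 135, a class read after thinning gave 16 and 9, DESeq2 gave 61 and 40, no filter on low counts gave 5 and 1, and a spread shared with fetal liver gave 6 and 4. Counting each cell once per gene gave 0 higher genes. Leaving out the replicate block, which here is the plate both classes came from, gave 0 higher genes among AGM cells and 0 for the difference between tissues. Added after seeing the data, a class at 5 UMIs gave 34 and 42, cells with 1 to 4 against none gave 0 and 1, and cells with 5 or more against 1 to 4 gave 4 and 4. Leaving out 1 AGM plate gave 4 to 57 higher and 10 to 48 lower genes, with the lone plate assumed to vary like the fetal liver plates. For the difference between tissues, 5 genes became 14 without pairing, 2 at 2 UMIs, 56 in DESeq2 and 21 without the filter, and 1 to 87 with 1 plate left out: 87 without AGM plate 1, 9 without AGM plate 2 and 1 without fetal liver plate 4. The cause was not tested. Each cell counted once gave -0.073 for both Nusap1 and Ube2c on the log2 scale, neither called. Ube2c had a UMI in 82 of 82 cells with Mki67 and 61 of 61 without, so this count could not differ. Nusap1 had one in 75 of 82 and 52 of 61, which left little room for a difference. These shares are of all kept cells, while the count used the paired cells. At 20000 UMIs per cell Nusap1 was found in 70.7% of cells with Mki67 and 33.9% of cells without. Gja4 at -2.07 and S100a16 at -1.27 in cells with 5 or more against 1 to 4 lay opposite to their direction between the classes. Over 78 genes and all settings, 1472 values were compared, of which 1198 kept direction and side, 102 that never passed changed sign, 152 passed that had not and 16 were lost. Shares with a UMI of Top2a were 79.3% with Mki67 against 47.5% without at 20000 UMIs, and 98.8% against 86.9% unthinned.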

Other observations

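Hbb-y, an embryonic beta globin, had at least 1 UMI in 94 of 95 kept cells of AGM plate 1 and in 8 of 48 of plate 2. Its median in plate 1 was 47.5 CPM in cells with Mki67 and 45.6 CPM in cells without. Of the immediate early genes, Dusp1 had 104 and 188 CPM with Mki67 against 60.8 and 66.8 CPM without, and Klf6 had 131 and 212 against 114 and 64.0 CPM, and 0 of 17 passed.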
